A study of Mus musculus with 6 samples.

Results

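Aminoacyl-tRNA synthetases are the enzymes that load each tRNA with its amino acid. The genes described here are 36 of the 55335 genes in the deposited count table, 20 for cytosolic and 16 for mitochondrial enzymes. They were chosen by gene symbol, looked up from the Ensembl identifiers of the table, and the mitochondrial enzymes are those whose symbols end in 2. RNA-seq libraries had been made from intestinal tissue of mice with colitis induced by dextran sulfate sodium (DSS), which injures the intestinal epithelium. The design gives 3 Trmt6-/- and 3 WT mice, and every animal of both groups carried DSS colitis. The labels name no age, strain, sex, allele design or intestinal segment, and no animals without DSS were analysed here. Trmt6 encodes a subunit of the tRNA 1-methyladenosine methyltransferase.

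Cytosolic synthetases supply charged tRNA to the ribosomes of the cytosol, and a separate nuclear-encoded set is imported to serve mitochondrial ribosomes. Gars and Kars encode the enzymes of both compartments, and Eprs joins the glutamyl and prolyl enzymes of the cytosol in 1 protein. When an amino acid runs short, uncharged tRNA activates the kinase GCN2, phosphorylated eIF2 slows initiation, and the transcription factor ATF4 is made. ATF4 binds composite C/EBP-ATF response elements near many cytosolic synthetase genes, whereas mitochondrial synthetase genes are rarely named among its targets.

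Because that element is the sequence usually tied to cytosolic synthetase genes, the promoters of the synthetase genes were searched for it. Promoter windows from RefSeq (GRCm38.p6) ran from 250 bases before to 50 bases after the start site, and were found for 13 cytosolic and 14 mitochondrial genes. The motif TGATGNAA, searched on both strands, was present in 5 of the 13 cytosolic windows, those of Aars, Gars, Iars, Tars and Yars. None of the 14 mitochondrial genes had a match, and 3.97% of 32851 RefSeq windows of the same length held one. A match describes letters in a window and is not a measured binding site. The windows of 4 cytosolic genes with a match are shown, with that of Tars2, the mitochondrial counterpart of Tars, for comparison. Each is written 5′ to 3′ along the strand of its gene, and capitals mark the match.
Aars, chr8:111033592-111033891, plus strand: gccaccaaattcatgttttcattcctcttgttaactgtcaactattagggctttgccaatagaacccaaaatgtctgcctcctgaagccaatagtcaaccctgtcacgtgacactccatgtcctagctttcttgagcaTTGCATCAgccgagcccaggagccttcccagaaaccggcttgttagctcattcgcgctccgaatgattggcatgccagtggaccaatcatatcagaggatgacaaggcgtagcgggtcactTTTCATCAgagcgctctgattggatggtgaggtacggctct
Gars, chr6:55037751-55038050, plus strand: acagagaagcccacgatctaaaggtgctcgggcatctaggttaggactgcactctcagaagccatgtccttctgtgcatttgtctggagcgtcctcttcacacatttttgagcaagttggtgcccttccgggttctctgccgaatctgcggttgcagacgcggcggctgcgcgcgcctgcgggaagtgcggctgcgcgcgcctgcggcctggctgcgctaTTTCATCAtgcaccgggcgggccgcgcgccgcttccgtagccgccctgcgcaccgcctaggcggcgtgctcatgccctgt
Tars, chr15:11399609-11399908, minus strand: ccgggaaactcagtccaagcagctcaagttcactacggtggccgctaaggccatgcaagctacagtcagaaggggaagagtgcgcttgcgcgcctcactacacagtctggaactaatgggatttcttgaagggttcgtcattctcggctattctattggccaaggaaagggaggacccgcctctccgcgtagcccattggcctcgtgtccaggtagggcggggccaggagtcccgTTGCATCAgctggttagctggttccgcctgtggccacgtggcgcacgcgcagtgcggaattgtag
Iars, chr13:49681880-49682179, plus strand: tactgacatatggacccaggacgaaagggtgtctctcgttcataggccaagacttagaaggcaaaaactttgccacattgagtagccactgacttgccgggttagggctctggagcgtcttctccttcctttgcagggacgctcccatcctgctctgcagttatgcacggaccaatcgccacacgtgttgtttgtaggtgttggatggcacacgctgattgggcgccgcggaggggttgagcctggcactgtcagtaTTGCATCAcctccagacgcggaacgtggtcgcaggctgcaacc
Tars2, chr3:95754928-95755227, minus strand: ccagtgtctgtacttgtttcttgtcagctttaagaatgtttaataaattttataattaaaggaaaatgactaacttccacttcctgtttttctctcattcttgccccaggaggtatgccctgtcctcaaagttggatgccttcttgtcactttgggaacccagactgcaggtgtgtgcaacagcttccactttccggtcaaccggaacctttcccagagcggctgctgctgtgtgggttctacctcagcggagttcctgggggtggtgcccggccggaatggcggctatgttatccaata
In these 4 cytosolic windows the capitals read as the motif on the opposite strand. The first base of the match lay 30 bases before the start site in Gars, 15 before it in Tars and at position 8 in Iars. Aars held a pair of matches, 112 bases before the start and at position 10.

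Deposited counts summed to between 15213972 and 16972758 per library. Levels are given as CPM, the counts divided by the TMM-normalised library size, and log2 fold changes are edgeR estimates ± SE with Trmt6-/- over WT. The libraries labelled Trmt6-/- are named KO72, KO73 and KO75 in the count table and held Trmt6 at 39.8, 34.2 and 36.2 CPM, against 30.9, 18.7 and 23.1 CPM for WT185, WT186 and WT187 (edgeR, adjusted p = 0.335). The count of the targeted gene thus goes against the label. No source used here says which bases were deleted, so a gene count may include reads outside them, and every direction below rests on the labels. Markers of intestinal region also differed between libraries. An index of ileal minus proximal marker genes (mean log2 CPM) was 0.59, -1.02 and -3.25 in KO72, KO73 and KO75. In WT185, WT186 and WT187 it was -1.47, -6.82 and -5.64. The groups overlapped only because KO75 lay below WT185, and KO72 and WT186 lay far apart. Regional markers were thus partly confounded with genotype. Small intestinal enterocyte genes summed to at least 20610 CPM in every library. Of 7 distal colon genes, Hoxb13, Hoxa13, Hoxd13 and Hoxd12 were at 0 in every library. Prdx6b was at 0.0521 CPM in WT185, Ly6g6c at 0.282 CPM in KO72, and both were at 0 elsewhere. Only Sprr2a2 was abundant, at 152, 203 and 72.4 CPM (KO72, KO73, KO75), against 41.0, 130 and 15.4 CPM in WT. Listed fibroblast genes summed to 2.31, 8.38 and 8.04 CPM (KO72, KO73, KO75), against 5.94, 7.57 and 5.75 CPM in WT. Listed smooth muscle genes summed to 2.03, 2.65 and 2.14 CPM, against 0.782, 1.43 and 1.26 CPM in WT. Marker RNA of the gut wall outside the epithelium was thus scarce in every library. In bulk tissue, fewer cells of a type and less RNA per cell cannot be told apart.

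All 36 synthetase genes passed the filter on low counts, with between 57 and 12821 counts per library. None passed the test over all 14107 genes by edgeR, DESeq2 or limma-voom, and the lowest adjusted p by edgeR was 0.264. Of all genes tested, 0.0425% passed with edgeR (0.0354% higher and 0.00709% lower) and 4.49% with DESeq2. At an unadjusted p below 0.05, 9 of the 20 cytosolic genes were above WT and 0 below it, where 6.15% of all genes tested were above and 5.94% below. Among the 16 mitochondrial genes, 1 was higher and 3 were lower by the same measure. The median log2 fold change was 0.45 over the cytosolic genes and -0.18 over the mitochondrial genes, against -0.03 over all genes tested. Fitted values lay above 0 for 18 of 20 cytosolic and 5 of 16 mitochondrial genes, and for 46.1% of all genes tested. The 9 cytosolic genes became 5 without KO72, 2 without KO75, 3 without WT186 or WT187 and 12 without WT185. With the regional index as covariate or with library totals as scaling, 2 were past an unadjusted p of 0.05 in each fit.

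**Figure D1:**
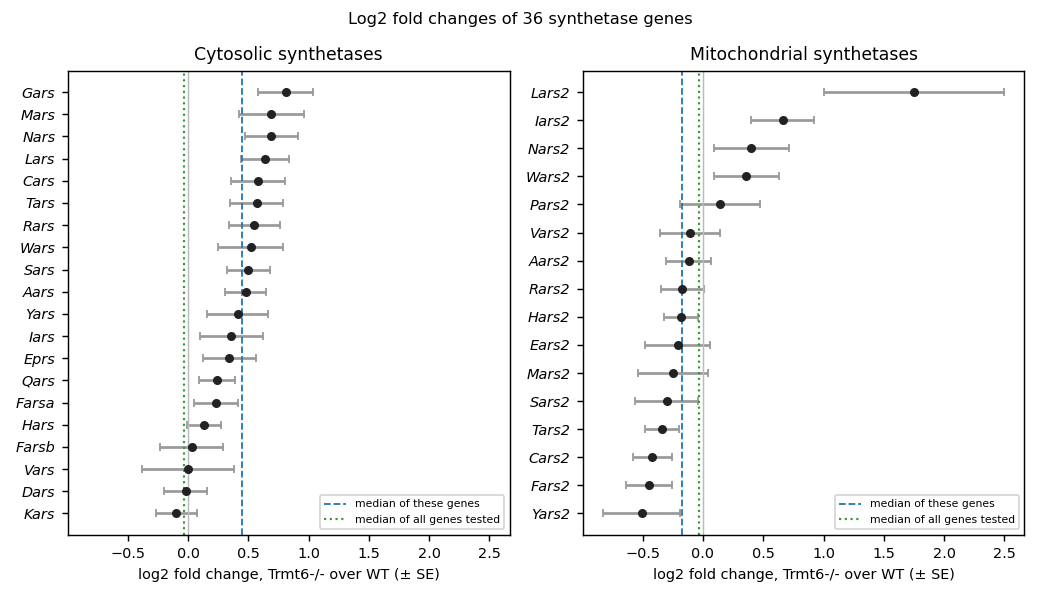
Log2 fold change, Trmt6-/- over WT, with its SE for each of 20 cytosolic (left) and 16 mitochondrial (right) synthetase genes. Dashed lines mark the group medians of 0.45 and -0.18, and the dotted line marks the median of all genes tested at -0.03.

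Gars, which charges glycine tRNA in both compartments, had the smallest p of the 36 genes. It was measured at 185, 147 and 215 CPM (KO72, KO73, KO75), against 130, 80.2 and 102 CPM (WT185, WT186, WT187). The groups did not overlap, with KO75 highest and WT186 lowest (log2 fold change 0.81 ± 0.23, adjusted p = 0.264 by edgeR). Groups without overlap occurred with the libraries labelled Trmt6-/- higher in 9.7% of all genes tested, and lower in 9.03%. Among the cytosolic genes 9 were higher without overlap and 0 lower, and among the mitochondrial genes 1 was higher and 4 were lower. On GRCm38, Gars lies on chromosome 6 from 55038007 to 55079500, and none of its exon bases is shared with another annotated gene.

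Nars, the asparaginyl enzyme, was the most abundant synthetase per length. It stood at 435, 369 and 584 CPM (KO72, KO73, KO75), against 282.5, 265.5 and 312 CPM (WT185, WT186, WT187). Again the groups did not overlap (0.69 ± 0.22, adjusted p = 0.289 by edgeR). Lars, the leucyl enzyme, was measured at 103, 70.0 and 89.2 CPM (KO72, KO73, KO75), against 64.7, 46.8 and 56.5 CPM in WT. Its lowest library labelled Trmt6-/- was KO73, above WT185 by a margin smaller than the spread within either group (0.64 ± 0.20, adjusted p = 0.276 by edgeR).

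Aars, which loads alanine and whose promoter holds a pair of motif matches, stood at 131, 122 and 167 CPM (KO72, KO73, KO75), against 111, 90.0 and 99.3 CPM (WT185, WT186, WT187). Of its exon bases, 15.1% are shared with Exosc6 or Gm24103, where reads assigned to 2 genes were not counted. The seryl enzyme gene Sars had 139, 109 and 151 CPM (KO72, KO73, KO75), against 109, 82.2 and 91.6 CPM in WT. KO73 and WT185 differed by less than 1 CPM in Sars. Cars, the cysteinyl enzyme gene and the least abundant of the cytosolic set per length, stood at 42.2, 37.2 and 58.4 CPM (KO72, KO73, KO75), against 35.5, 25.8 and 30.9 CPM in WT. The log2 fold changes of Aars, Sars and Cars were 0.48 ± 0.17, 0.50 ± 0.18 and 0.58 ± 0.22.

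Rars, which charges arginine tRNA within the multi-synthetase complex, was measured at 153, 139 and 218 CPM (KO72, KO73, KO75), against 132, 104.5 and 111 CPM (WT185, WT186, WT187). Tars, the threonyl enzyme gene, followed at 142, 130.4 and 200 CPM (KO72, KO73, KO75), against 129, 92.7 and 95.5 CPM in WT. In both genes KO75 stood apart above the other 2 libraries of its label, and KO73 lay close to WT185. Mars, which charges both initiator and elongator methionine tRNA, was the only one of the 9 whose groups overlapped. It stood at 79.0, 63.2 and 89.1 CPM (KO72, KO73, KO75), against 66.0, 33.8 and 43.6 CPM in WT, with WT185 above KO73 (0.69 ± 0.27, adjusted p = 0.374 by edgeR). Mars shares 1.99% of its exon bases with Ddit3, which was measured at 11.2 ± 3.68 CPM in libraries labelled KO against 11.2 ± 3.58 CPM in WT (SD, n = 3 each).

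The other 11 cytosolic genes did not reach an unadjusted p of 0.05. Of these, Wars, Yars, Qars, Eprs, Iars, Farsa and Hars had fitted values from 0.13 to 0.52. Qars, the glutaminyl enzyme gene, was the only one of them without overlap, at 210, 221 and 221.5 CPM (KO72, KO73, KO75), against 193, 161 and 197 CPM in WT. Kars (-0.10 ± 0.17), Dars (-0.02 ± 0.18), Vars (0.00 ± 0.38) and Farsb (0.03 ± 0.26) lay near 0. Vars, the valyl enzyme gene, had the largest SE of the cytosolic set, at 180, 137 and 114 CPM (KO72, KO73, KO75), against 208, 73.5 and 149 CPM in WT. Its fitted value ran from -0.64 with the regional index as covariate to 0.40 without WT185.

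**Figure D2:**
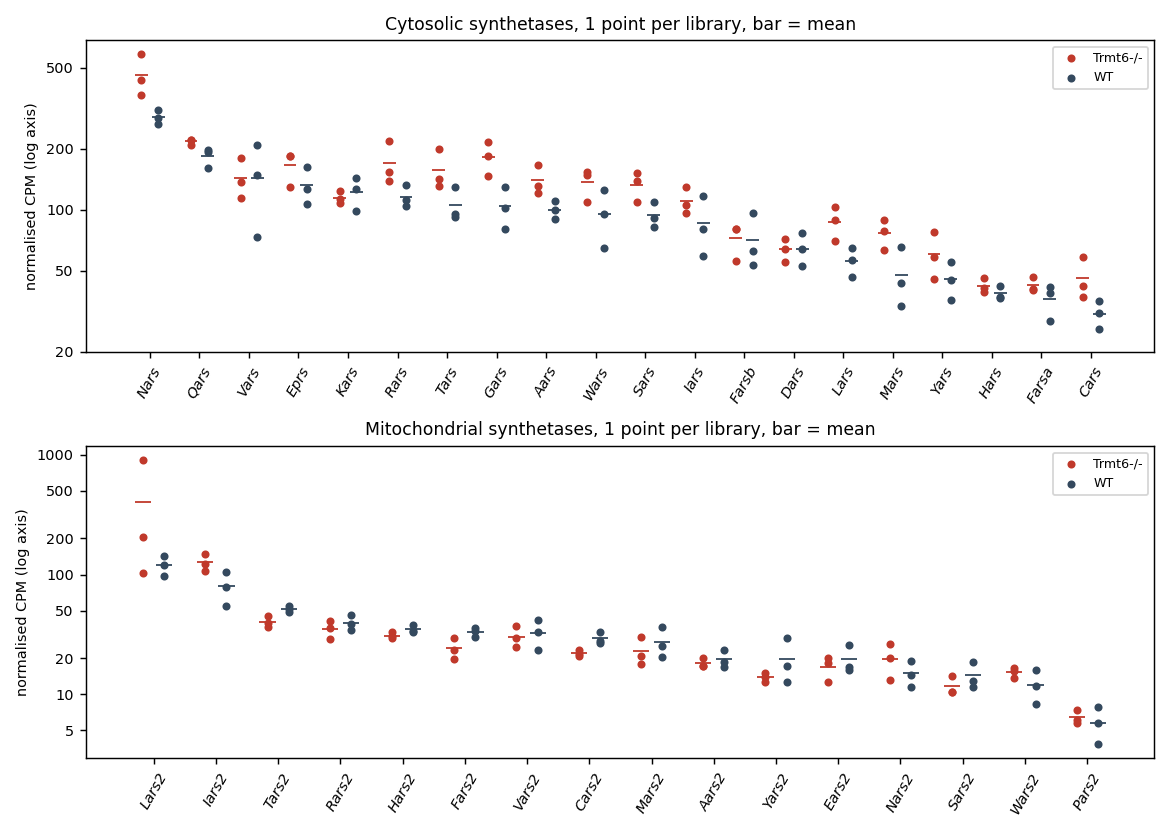
Normalised CPM on a log axis for each cytosolic (top) and mitochondrial (bottom) synthetase gene, with 1 point per library, libraries labelled Trmt6-/- left of WT, and bars at the group means. Nars and Gars show separate groups, whereas Lars2 reaches 895 CPM in KO73.

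Wars encodes the tryptophanyl enzyme, which interferon-gamma is known to induce. It stood at 153, 109 and 149 CPM (KO72, KO73, KO75), against 125, 64.7 and 95.8 CPM (WT185, WT186, WT187), and the groups overlapped (0.52 ± 0.27, adjusted p = 0.517 by edgeR). With the regional index as covariate the value was 0.23. Most interferon-gamma response genes had fitted values below 0. Of 22 listed, 20 were tested, none passed over all genes, and the median was -1.29. By edgeR, 10 were lower and 0 higher at an unadjusted p below 0.05, against 5.94% and 6.15% of all genes tested. Summed over the list, levels were 835, 1566 and 1575 CPM (KO72, KO73, KO75), against 1735, 4100 and 4438 CPM (WT185, WT186, WT187). The part of interferon in the Wars values was not tested.

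The cytosolic genes were divided by whether they stand in the usual lists of ATF4 targets, taken from general knowledge with earlier results of these data known. The 12 usual targets had fitted values from 0.34 to 0.81, all above 0, with a median of 0.55. Of these 12, 8 were higher at an unadjusted p below 0.05. The 8 other genes (Dars, Farsa, Farsb, Hars, Kars, Qars, Rars and Vars) had a median of 0.08, and Rars alone was higher at an unadjusted p below 0.05. No test of the difference between the sets was made. Among 24 genes of the ATF4 axis outside the synthetases, 1 passed over all genes, Atf5, and the median was 0.92. By edgeR, 11 were higher and 0 lower at an unadjusted p below 0.05, against 6.15% and 5.94% of all genes tested. Atf5, a transcription factor translated under the same control as ATF4, had 82.6, 63.3 and 105 CPM (KO72, KO73, KO75), against 14.6, 9.07 and 10.7 CPM (WT185, WT186, WT187), without overlap (2.86 ± 0.27, adjusted p = 0.0424 by edgeR). The call was lost in 10 of 17 alternative fits, those with upper-quartile or library-total scaling, limma-voom, the regional index or any 1 library left out. Leaving out a library gave adjusted p-values by edgeR of 0.071 (without KO72) to 0.198 (without KO73), and over all 17 fits the fold change stayed between 2.67 and 3.10. Within the libraries labelled Trmt6-/-, Atf5 was highest in KO75 and lowest in KO73. Gars and Nars had the same order, whereas Lars, Iars and Wars, also usual targets, were highest in KO72. Outside the usual targets, Rars, Dars, Hars and Farsa had the order of Atf5 too, and Farsb, Kars, Qars and Vars did not. Of the libraries labelled Trmt6-/-, KO75 was the highest for 13 of the 20 cytosolic genes and KO72 for 7, and KO73 was the lowest for 17. GCN2 (Eif2ak4) was measured at 12.6 ± 2.71 CPM in libraries labelled KO against 11.1 ± 4.68 CPM in WT (SD, n = 3 each), and none of 8 tested eIF2 kinase and partner genes reached an unadjusted p of 0.05. The part of ATF4 in the synthetase values was not tested.

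The 5 cytosolic genes with a promoter match had fitted values from 0.36 to 0.81 and a median of 0.48. The 8 with a window but no match, Sars and Mars among them, ran from -0.10 to 0.69 with a median of 0.24. The ranges overlapped, and Mars, at 0.69, had a window with no match. Cars, Hars, Lars, Nars, Rars, Vars and Wars had no window and are in neither set. Among them, Cars, Lars, Nars and Rars were higher at an unadjusted p below 0.05 by edgeR.

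Synthetases that assemble into the multi-synthetase complex (Dars, Eprs, Iars, Kars, Lars, Mars, Qars and Rars) had a median of 0.35, and the 12 outside it a median of 0.49. At an unadjusted p below 0.05 by edgeR there were 3 of 8 and 6 of 12 higher, against 6.15% of all genes tested. The scaffold genes Aimp1 (0.28 ± 0.17), Aimp2 (-0.11 ± 0.24) and Eef1e1 (0.42 ± 0.24) did not pass. Aimp1 was measured at 65.1 ± 9.64 CPM in libraries labelled KO against 53.7 ± 6.70 CPM in WT and Aimp2 at 21.1 ± 4.01 CPM in libraries labelled KO against 22.8 ± 5.36 CPM in WT (SD, n = 3 each).

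Mitochondrial synthetases were measured at lower levels, and most fitted values were below 0. Cars2, the mitochondrial cysteinyl enzyme gene, stood at 21.1, 21.6 and 23.3 CPM (KO72, KO73, KO75), against 33.2, 27.8 and 27.0 CPM (WT185, WT186, WT187). The groups did not overlap (-0.42 ± 0.16, adjusted p = 0.362 by edgeR). In Tars2, Fars2 and Hars2, too, every library labelled Trmt6-/- lay below every WT library. Tars2, for threonine, stood at 44.9, 36.8 and 39.6 CPM (KO72, KO73, KO75), against 54.3, 48.7 and 51.1 CPM in WT (-0.34 ± 0.14, adjusted p = 0.385 by edgeR). Fars2, for phenylalanine, was measured at 19.9, 23.5 and 29.5 CPM (KO72, KO73, KO75), against 33.7, 35.75 and 30.3 CPM in WT (-0.45 ± 0.19, adjusted p = 0.405 by edgeR). KO75 and WT187 were the closest libraries in Fars2. Hars2, for histidine, averaged 30.9 ± 1.79 CPM in libraries labelled KO against 34.98 ± 2.26 CPM in WT (SD, n = 3 each). Of the exon bases of Hars2, 4.56% are shared with its neighbour Hars. Yars2 had the lowest fitted value of the set (-0.51 ± 0.32), its groups overlapped, and without WT185 the value was -0.09. The remaining Sars2, Mars2, Ears2, Rars2, Aars2 and Vars2 ran from -0.30 to -0.11. The 4 mitochondrial genes at an unadjusted p below 0.05 became 2 without KO72 or WT185, 0 without KO73, 3 without WT186 and 1 without WT187. Without WT185 the mitochondrial median was 0.04.

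Iars2, which charges mitochondrial isoleucine tRNA, lay the other way from these genes. It stood at 150, 121 and 107 CPM (KO72, KO73, KO75), against 106, 54.7 and 78.3 CPM (WT185, WT186, WT187). The groups did not overlap, though KO75 and WT185 differed by less than 2 CPM (0.66 ± 0.26, adjusted p = 0.382 by edgeR). The fitted value was 0.20 with the regional index as covariate. Iars2 (chromosome 1, 185284726 to 185329396) shares 24.2% of its exon bases with Rab3gap2 or 2010103J01Rik. Nars2 (0.40 ± 0.31), Wars2 (0.36 ± 0.27) and Pars2 (0.14 ± 0.33) were the others with a fitted value above 0 besides Lars2.

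Lars2, for mitochondrial leucine tRNA, had the largest fitted value of the 36 genes and rested on 1 library. It stood at 104, 895 and 206 CPM (KO72, KO73, KO75), against 142, 120 and 96.5 CPM (WT185, WT186, WT187). KO72 lay within the WT range (1.75 ± 0.75, adjusted p = 0.421 by edgeR), and without KO73 the value was 0.37. Genes annotated as ribosomal RNA took 0.0234%, 0.0721% and 0.0533% of counts in KO72, KO73 and KO75, against 0.0343%, 0.029% and 0.0228% in WT. Gm23935, annotated as a microRNA gene, stood at 148, 1804 and 356 CPM (KO72, KO73, KO75), against 199, 178 and 134 CPM in WT. Gm26917, a non-coding RNA gene beside a ribosomal RNA gene on chromosome 17, stood at 172 CPM in KO73 and between 43.3 and 55.8 CPM elsewhere. These comparison genes were chosen after their values were seen, and their part in the Lars2 counts was not tested. All 37 genes of the mitochondrial chromosome are listed at 0 in every library, so no transcript that these enzymes serve can be set beside them.

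Partners of the mitochondrial enzymes were read as context. The 9 mitochondrial translation factor genes all had fitted values below 0, from -0.70 to -0.09, with a median of -0.25. None passed, and 2 were lower at an unadjusted p below 0.05 by edgeR, as were 5.94% of all genes tested. Tufm, the mitochondrial elongation factor Tu gene, was measured at 121 ± 20.1 CPM in libraries labelled KO against 166 ± 21.0 CPM in WT, and Gfm1, an elongation factor G gene, at 61.4 ± 10.2 CPM in libraries labelled KO against 76.9 ± 8.50 CPM in WT (SD, n = 3 each). Among 14 other charging and proofreading genes the median was -0.14 and none passed. Xpot, the tRNA export factor gene, was measured at 117 ± 12.9 CPM in libraries labelled KO against 102 ± 7.89 CPM in WT, and Sepsecs, which completes selenocysteine on its tRNA, at 82.8 ± 2.06 CPM in libraries labelled KO against 100.3 ± 30.5 CPM in WT (SD, n = 3 each). Qrsl1, named after its values were seen, encodes a subunit of the amidotransferase that makes mitochondrial glutaminyl-tRNA and stood at 14.9 ± 0.57 CPM in libraries labelled KO against 22.2 ± 3.67 CPM in WT (-0.57 ± 0.19, adjusted p = 0.297 by edgeR).

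**Figure D3:**
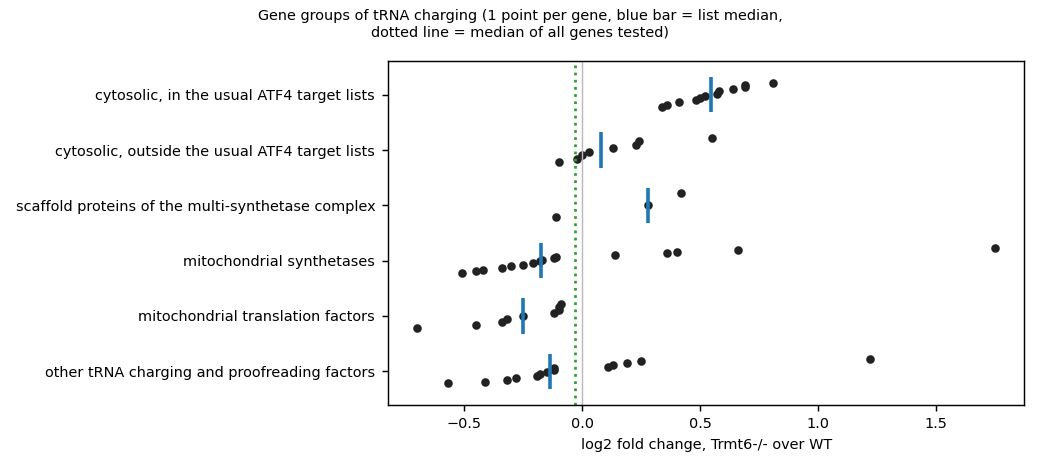
Log2 fold change, Trmt6-/- over WT, with 1 point per gene for synthetase groups and their partners, blue bars at the list medians and a dotted line at the median of all genes tested. The 12 usual ATF4 targets lie between 0.34 and 0.81, whereas the 9 mitochondrial translation factors lie between -0.70 and -0.09.

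The contrast between compartments was then followed library by library. For each gene the log2 CPM was taken relative to its mean over the 6 libraries. The median over cytosolic genes was 0.19, 0.01 and 0.39 in KO72, KO73 and KO75, against 0.08, -0.45 and -0.21 in WT185, WT186 and WT187. These overlapped, with WT185 above KO73. WT186 was the lowest of all 6 libraries for 20 of the 20 cytosolic genes. Over mitochondrial genes the median was 0.12, -0.23 and -0.08 in KO72, KO73 and KO75, against 0.28, -0.20 and 0.01 in WT, and WT185 was the highest of the 6 libraries for 10 of 16 genes. WT185 was thus the highest WT library in both sets and WT186 the lowest. Cytosolic minus mitochondrial medians were 0.07, 0.23 and 0.47 in KO72, KO73 and KO75, against -0.21, -0.25 and -0.22 in WT185, WT186 and WT187. All 3 libraries labelled Trmt6-/- lay above the 3 WT libraries in this difference. The WT libraries nearly coincided, whereas KO72, KO73 and KO75 were spread about as widely as in the cytosolic median alone. In the fits, the difference between the medians of log2 fold change was 0.62, and 0.48 to 0.69 with a library left out. It was also 0.62 with the regional index as covariate, where the cytosolic median was 0.28 and the mitochondrial median -0.34. A score over chosen genes carries no p here.

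**Figure D4:**
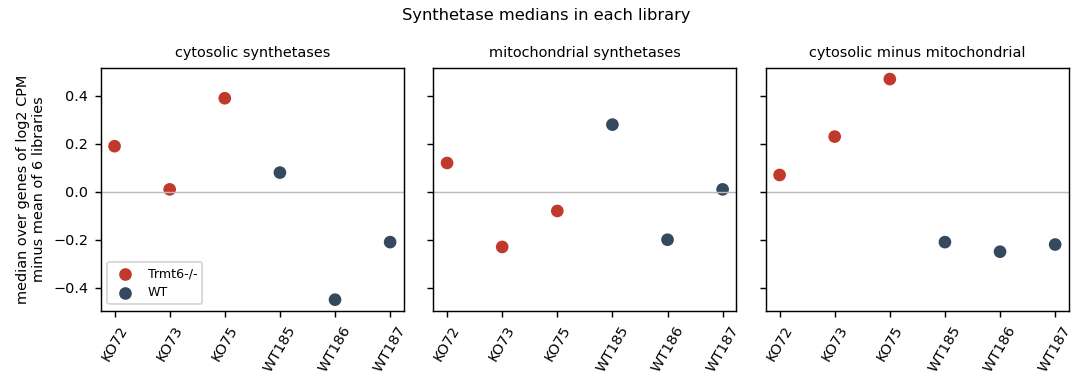
Median over genes of log2 CPM, relative to each gene's mean over 6 libraries, for cytosolic synthetases (left), mitochondrial synthetases (middle) and their difference (right), with 1 point per library. The difference is 0.07 to 0.47 in the libraries labelled Trmt6-/- and -0.25 to -0.21 in WT.

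Enzymes for the same amino acid were compared within each library as the log2 ratio of cytosolic to mitochondrial CPM, in which the scaling between libraries largely cancels. Of 17 pairs, in which Fars2 and Eprs each occur in 2, the mean ratio was higher in the libraries labelled Trmt6-/- in 15 and lower in 2. The groups did not overlap in 11 pairs, 10 with the libraries labelled Trmt6-/- higher and 1 lower. For single genes, groups without overlap made up 18.7% of all tested in either direction. No such share was computed for ratios of other gene pairs, so the count of pairs has no background of its own kind. With 3 libraries against 3 the smallest p of the exact two-sided permutation test is 0.1, which these 11 pairs gave, and after Benjamini-Hochberg adjustment over 17 pairs it was 0.155. No pair could therefore pass, and the other 6 pairs gave exact p-values of 0.2 to 0.8.

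Mars over Mars2 differed most. Its log2 ratio was 1.37, 1.58 and 2.28 in KO72, KO73 and KO75, against 0.84, 0.71 and 0.76 in WT185, WT186 and WT187, a difference of 0.97. The WT libraries agreed closely in this pair, although Mars alone overlapped between groups. Cars over Cars2 was 0.99, 0.77 and 1.31 in KO72, KO73 and KO75, against 0.09, -0.11 and 0.19 in WT, a difference of 0.96. Divided by length, the counts of Cars were 2.26-fold those of Cars2 in the libraries labelled Trmt6-/-, against 1.15-fold in WT.

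Tars over Tars2 followed at 1.92 ± 0.35 in libraries labelled KO against 1.02 ± 0.19 in WT (SD, n = 3 each), and Yars over Yars2 at 2.06 ± 0.33 in libraries labelled KO against 1.25 ± 0.30 in WT. The ratio of Sars to Sars2 was 3.45 ± 0.29 in libraries labelled KO against 2.69 ± 0.15 in WT, and that of Rars to Rars2 was 2.24 ± 0.16 in libraries labelled KO against 1.54 ± 0.31 in WT. Hars over Hars2, neighbours on the genome, differed by 0.30 without overlap, at 0.45 ± 0.13 in libraries labelled KO against 0.15 ± 0.03 in WT. The remaining pairs without overlap toward higher ratios were Aars (0.58), Farsa (0.70) and Eprs over Ears2 (0.53). Iars over Iars2 was the 1 pair lower without overlap, at -0.21, -0.33 and -0.03 in KO72, KO73 and KO75, against 0.15, 0.12 and 0.05 in WT. Lars over Lars2 was -1.62 ± 1.87 in libraries labelled KO against -1.08 ± 0.30 in WT, and its difference of -0.54 became 0.48 without KO73. Nars, Vars and Wars over their counterparts and Eprs over Pars2 overlapped, with differences of 0.16 to 0.30, and Farsb over Fars2 overlapped with 0.52.

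**Figure D5:**
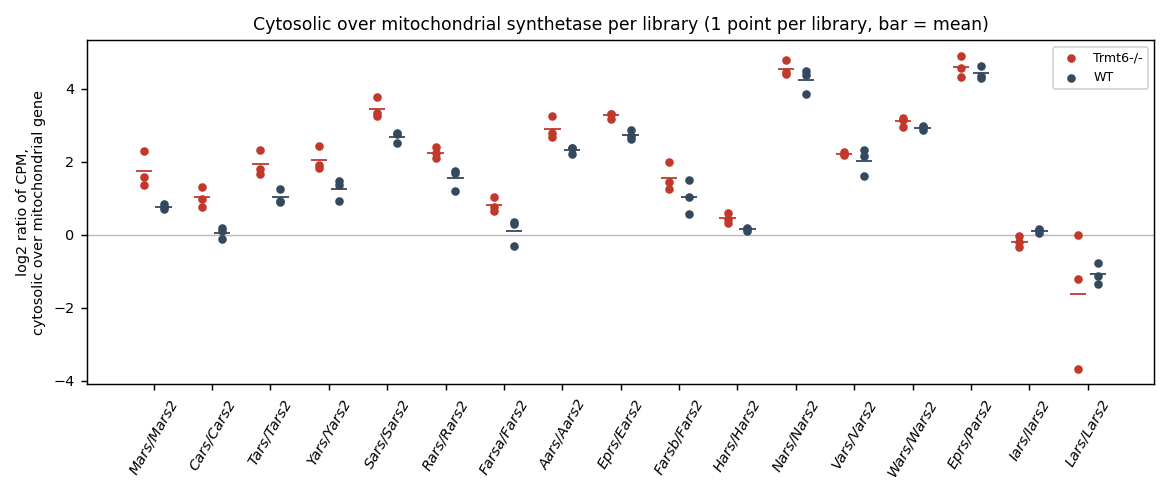
Log2 ratio of CPM, cytosolic over mitochondrial gene for the same amino acid, with 1 point per library, libraries labelled Trmt6-/- left of WT, and bars at the means. Pairs are ordered by their difference, from 0.97 for Mars over Mars2 to -0.54 for Lars over Lars2, where KO73 lies at -3.67.

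Levels between genes were compared as TPM, which divides counts by exon length before scaling to the library. That length takes in every annotated exon base of a gene, so values per length are not numbers of transcripts. Nars was highest in both groups at 322 ± 71.2 TPM in libraries labelled KO against 226.5 ± 34.1 TPM in WT. Next in the libraries labelled KO came Gars at 178 ± 39.1 TPM against 116 ± 36.6 TPM in WT, Rars at 159 ± 33.5 TPM against 124 ± 24.8 TPM in WT and Wars at 122 ± 33.0 TPM against 96.5 ± 37.5 TPM in WT (SD, n = 3 each). In WT, Rars lay above Gars and Qars was level with Wars at 96.5 TPM. Gars and Rars were within each other's spread in both groups. Lars2 apart, Rars2 and Iars2 were the most abundant mitochondrial enzymes, at 38.7 ± 7.92 TPM in libraries labelled KO against 48.7 ± 4.14 TPM in WT and 43.9 ± 13.6 TPM in libraries labelled KO against 31.3 ± 12.3 TPM in WT (SD, n = 3 each). Nars exceeded Nars2 by 38.2-fold per length in the libraries labelled Trmt6-/- and by 31.2-fold in WT, the widest gap between enzymes for 1 amino acid. Summed over the 20 cytosolic genes, the level was 2016, 1353 and 1797 TPM in KO72, KO73 and KO75, against 1813, 1046 and 1477 TPM in WT185, WT186 and WT187. The sums overlapped between groups. These TPM values carry no TMM scaling between libraries.

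Markers of other cells moved between libraries too. Summed T and NK cell genes (14 listed, 13 tested) were at 133 to 1066 CPM in KO72, KO73 and KO75, against 371 to 1344 CPM in WT. With their mean as covariate the cytosolic median was 0.48 and the mitochondrial median -0.23. The 14 cell cycle genes summed to between 448 and 1204 CPM in KO72, KO73 and KO75, against 644 to 1603 CPM in WT, with WT185 highest. WT185 was also the highest library for 4 of 20 cytosolic synthetase genes, Vars among them, and for 10 of 16 mitochondrial ones. Goblet cell genes (7 of 7 tested) all had fitted values above 0, with a median of 0.45, the same as that of the cytosolic synthetases, and none passed over all genes. Their sums overlapped, at 12300, 13130 and 17120 CPM (KO72, KO73, KO75), against 8572, 9494 and 13000 CPM in WT. The 8 Paneth cell genes had a median of 0.40 and summed to 8227, 4165 and 5094 CPM (KO72, KO73, KO75), against 9583, 992 and 3474 CPM (WT185, WT186, WT187). WT186, the lowest library for all 20 cytosolic synthetases, was thus also the lowest for the Paneth cell genes. None of 8 neutrophil genes was abundant enough to test, and Mpo and Elane were at 0 in every library. The neutrophil list summed to 1.13, 2.86 and 9.11 CPM (KO72, KO73, KO75), against 0.313, 0.136 and 0.959 CPM in WT, without overlap. S100a8 stood at 0.0564, 0.559 and 3.42 CPM and S100a9 at 0.0564, 1.61 and 2.21 CPM (KO72, KO73, KO75). Both were at 0 in all 3 WT libraries, and their highest counts in a library were 48 and 31. Csf3r, Retnlg, Ly6g and Cxcr2, also on the list, overlapped between groups. The part of these cells in the synthetase values was not tested.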

How the data were processed

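Per the labels' protocols, a ZYMO Quick-RNA kit gave total RNA, and amplified cDNA went into a Vazyme TruePrep library kit. The authors deposited raw counts per gene from featureCounts 2.0.1 on GENCODE M23 with paired reads and no strand, multimapping or overlap option, per the file headers. The gene length written by featureCounts (unit: other), per the file headers, was used only for TPM. The submitters' processing notes name fastp, HISAT2 and mm10, without versions. Counting was therefore unstranded, and reads of 2 overlapping genes were left out. PCR without molecular identifiers means that depth gives counting error only. The design text gives 3 mice per genotype.

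Columns were put in groups by the KO or WT at the start of their names, and the number that follows is in no label. Gene names were taken from GENCODE M21 (same assembly), with matches for 55154 of 55335 identifiers, and all 36 members were found. Library pairs within a group gave a chi-square per degree of freedom of 48.6 to 209, so none was a duplicate. After filterByExpr and TMM scaling, edgeR 4.0.16 (R 4.3.3) fitted genotype alone, with two-sided quasi-likelihood tests and Benjamini-Hochberg adjustment over 14107 genes at a threshold of 0.05. The SE is the log2 fold change divided by the square root of F. The fit was tested on simulated data with 200 changed genes. Log2 values of single libraries and pair ratios use CPM plus 0.5.

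Alternatives were RLE, upper-quartile and library-total scaling, DESeq2 1.42.0, limma 3.58.1 (voom, without and with sample weights), robust dispersions, no filter, 1 CPM in 3 libraries, each library left out, and a regional or a T and NK cell index as covariate. The members, lists, indices and alternatives were chosen with earlier results of these data known. Full values are given for the 12 members with the smallest p and the 4 highest per length. From other lists, members past the threshold or up to 2 of high CPM are named, and any further gene was chosen after its values were seen. The values of 1 gene among the other charging and proofreading factors are not reported here.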

Additional observations from a re-analysis of the deposited data

How the results depend on the processing

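No synthetase passed an adjusted p of 0.05 under any of 17 alternative fits, and the lowest adjusted p was 0.0568 (Gars and Nars with DESeq2). Of 612 recomputed fold changes, 588 kept their direction and 24 turned. The direction held in every fit for 15 of 20 cytosolic and 11 of 16 mitochondrial genes. The number of genes called over the whole table was 6 in the reported fit, 0 with library totals, limma-voom or the regional index, 16 with the T and NK cell index, 159 without a filter, 385 with sample weights and 633 with DESeq2. Leaving out 1 library gave 0 to 6. Cytosolic genes at an unadjusted p below 0.05 numbered 2 with library totals and 2 with the regional index, and 2 to 12 without 1 library, 5 of them without KO72 and 3 without WT186 or WT187. Mitochondrial genes numbered 2 with library totals, 2 without a filter and 1 with the T and NK cell index, and 0 to 4 without 1 library. Farsb turned to -0.06 with library totals, -0.02 with sample weights and -0.26 with the regional index, which also turned Iars to -0.05 and Pars2 to -0.30. Vars, at 0.00 in the reported fit, went to -0.10 with library totals, -0.03 with sample weights, -0.64 with the regional index and -0.14 with the T and NK cell index. Without 1 library the log2 fold change ran from -0.13 to 0.35 for Farsb, -0.30 to 0.40 for Vars (-0.19 without KO72), -0.13 to 0.15 for Dars (0.08 without KO73), -0.22 to 0.05 for Kars, -0.21 to 0.05 for Aars2, -0.34 to 0.06 for Ears2, -0.50 to 0.03 for Mars2, -0.29 to 0.12 for Vars2 (0.02 without KO75) and -0.07 to 0.44 for Pars2. The pair difference ran from -1.35 to 0.48 for Lars over Lars2 and from -0.01 to 0.33 for Vars over Vars2. The cause of these shifts was not tested. Library totals, which lower the median of all genes to -0.10, left the cytosolic median at 0.35 and the mitochondrial median at -0.24. No paired analysis was possible because the library columns carry no replicate number.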
